A study of Cavia porcellus with 9 samples.

Results

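The circadian clock genes described here, 10 in all, were followed through the retinal transcriptome of guinea pigs (Cavia porcellus) reared under green, blue or white light: the activators Clock and Arntl, the repressors Per1, Per2, Per3, Cry1 and Cry2, the nuclear receptors Nr1d1 and Nr1d2, and the output factor Dbp. They were taken by name from the deposited count table, where all 10 of 10 are present among 19962 rows, and all 10 passed the filter on low counts, as did 15469 genes in all. The animals were male Dunkin-Hartley guinea pigs with tri-colour coats, 2 weeks old when obtained, and the labels give an age of 12 weeks for the retinas. Each group received its light for 8 weeks, on a cycle of 12 hours of light and 12 hours of darkness that all groups shared. The labels speak of 45 animals, and 3 libraries per light are analysed here. The titles of 2 libraries in each group repeat an animal number, which is 11 for green, 32 for blue and 6 for white. Every mean thus rests on 2 animal labels, and the 9 libraries on 6. Green library 1 and white library 3 also carry a suffix, -B, that the labels do not explain. The animal labels of blue library 1 and white library 3 are alike but for a prefix, and whether they name 1 animal is not stated; they are counted as separate here. The sources used here name no clock time or light phase for the removal of the retinas.

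The clock is a loop of transcription and translation that runs in most cells. CLOCK and ARNTL (now also called BMAL1) bind together to E-box motifs and switch on the Per, Cry, Nr1d and Dbp genes. PER and CRY proteins then return to the nucleus and block that activity, while NR1D1 and NR1D2 repress Arntl in a linked loop. The retina holds its own clock, with roles in photoreceptor renewal, melatonin and dopamine release and visual sensitivity, and dopamine and light are both studied as signals in the control of eye growth. In a rhythmic tissue the Arntl transcript and the Nr1d1 and Dbp transcripts peak at opposed times of day.

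The libraries held from 62155041 to 74979806 counts. Rod markers summed to between 63459 and 82905 CPM (counts scaled to a common library total), cone markers to between 2457 and 2773 CPM and blood markers, of which 2 of 5 had a row, to at most 1.11 CPM. Markers of the pigment epithelium, which lies against the photoreceptors, varied widely within groups, and 2 of them (Tyrp1 and Dct) were at 0 in the lowest library. The 11 genes of that list summed to 243, 735 and 224 CPM in green libraries 1 to 3, to 514, 572 and 718 CPM under blue and to 360, 754 and 298 CPM in white. Rgr alone stood at 177 to 367 CPM over the libraries, so it makes up most of the lowest sums. Rpe65 ran from 7.76 to 144 CPM, a wider range for its level than that of the sums. Lens markers were higher than in white light for 11 of 12 genes in green and 12 of 12 in blue, with medians of 1.17 and 1.16 on the log2 scale and 0 called in edgeR. At an unadjusted p under 0.05 in edgeR stood 8 of 12 lens markers in green and 5 of 12 in blue, all higher than in white. Of all genes tested 5.81% and 4.45% reached that p. The lens markers summed to 98.7 to 119 CPM in green, 73.7 to 114 in blue and 47.3 to 96.1 in white, and their part in the results was not tested. The first principal component of all genes tested held 28.2% of the variance of log2 levels. Its scores ran from -23.6 in white library 2 to 29.1 in green library 1, and white libraries 1 and 2, which carry the same animal number, stood at 11.7 and -23.6.

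No clock gene passed the test for a difference between lights. In edgeR 0 of the 10 passed at an adjusted p under 0.05 in any comparison, where 0.00646% of all genes tested passed between green and white, 0.00646% between blue and white, 0% between green and blue and 0.00646% in the joint test of any difference among lights. The smallest adjusted p of a clock gene in edgeR was 0.854 between green and white (Per3), 0.99996 between blue and white, 0.654 between green and blue (Dbp) and 0.829 in the joint test (Dbp). DESeq2, which called 0.155%, 0.181%, 0.31% and 0.53% of genes in the same 4 tests, and voom with the animal number as block, which called 0% in each, also called 0 of the 10. At an unadjusted p under 0.05 edgeR had 0 of 10, 0 of 10, 1 of 10 and 0 of 10, against 5.81%, 4.45%, 7.18% and 5.94% of all genes. The single gene was Dbp between green and blue. DESeq2 had 0, 0, 1 and 1 of the 10 at that p, against 5.99%, 4.7%, 7.61% and 7.1% of all genes. With voom it was 1, 0, 2 and 1 of the 10, against 8.89%, 6.57%, 10.6% and 9.39%. The libraries of both lights failed to overlap for 0 of 10 genes between green and white, where 10.1% of all genes were so separated. They failed to overlap for 1 of 10 between blue and white, against 9.9% of all genes, and for 1 of 10 between green and blue, against 14.2%.

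Every 95% interval of the 10 genes lay within a 2-fold difference in each of the 3 comparisons. Within a 1.5-fold difference lay 8 of 10 between green and white, 9 of 10 between blue and white and 8 of 10 between green and blue. The genes with wider intervals were Clock in each comparison and Nr1d2 in the 2 with green. Within a 1.2-fold difference lay only 3 of 10 in each comparison, so smaller changes were not resolved. The tests take libraries as independent although some share an animal number, so the intervals measure the spread between libraries.

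**Figure D1:**
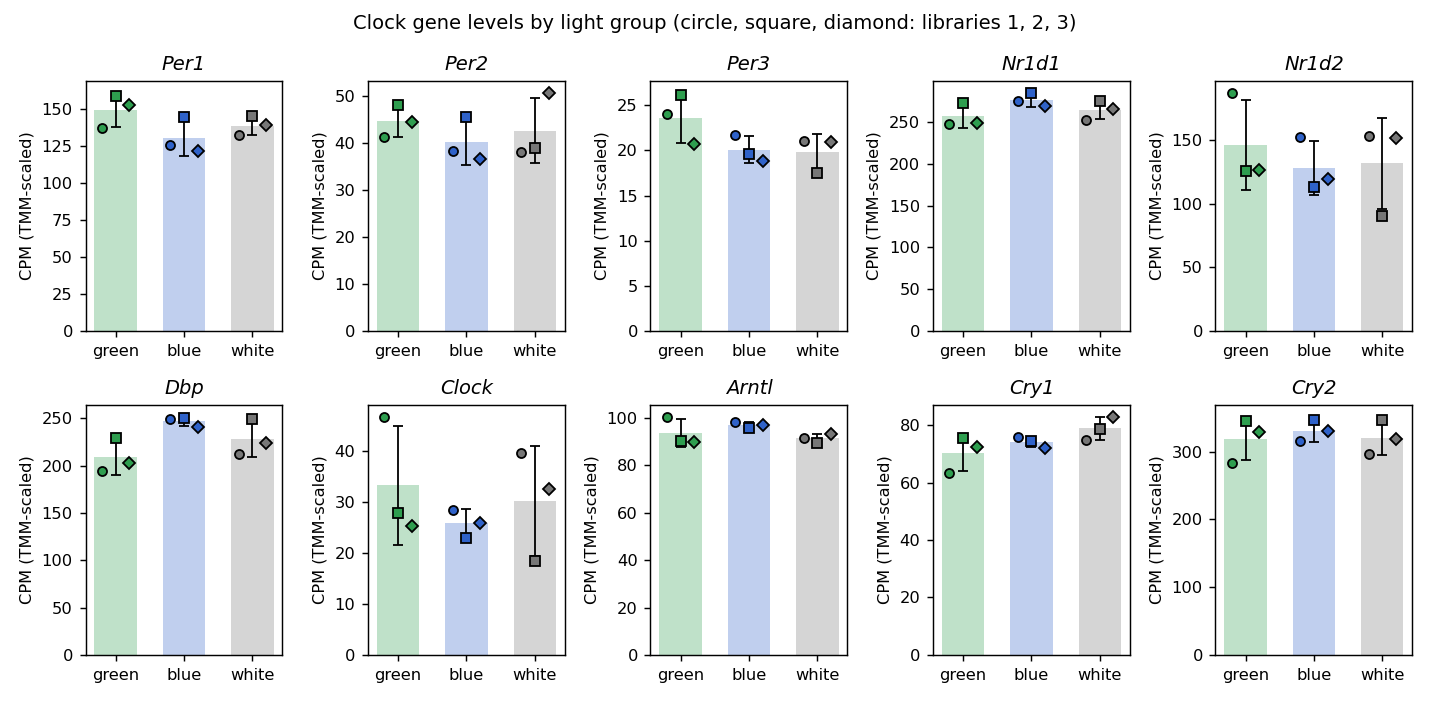
CPM of each clock gene (vertical axis, from 0) in the green, blue and white libraries; bars are means, error bars SD of 3 libraries, and points single libraries. For Arntl, and likewise for Nr1d1, the libraries lie close together, whereas Clock runs from 18.5 to 46.8 CPM and Nr1d2 from 90.6 to 187 CPM within and across groups.

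**Figure D2:**
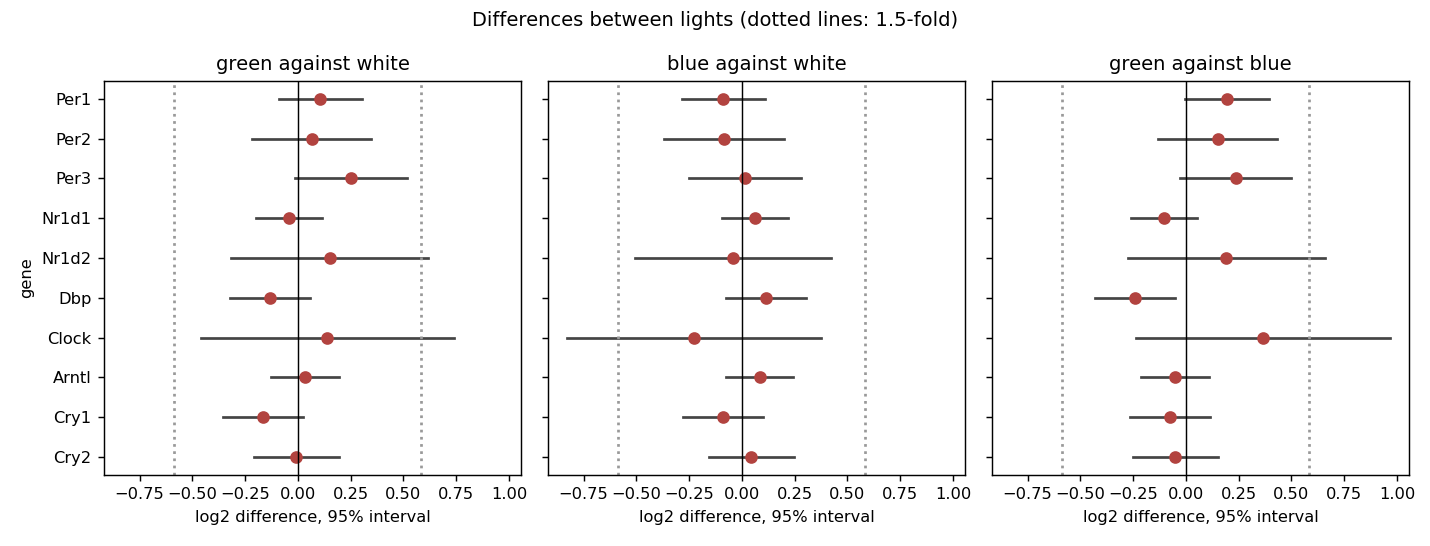
Log2 difference (horizontal axis) of each clock gene in the 3 comparisons, with its 95% interval from edgeR; dotted lines mark a 1.5-fold difference. The intervals of Clock are the widest, and the interval of Dbp between green and blue is the only one that excludes 0, at an adjusted p of 0.654.

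Of the activators, Clock, which encodes the histone acetyltransferase partner of the pair, was the most variable gene of the set. It stood at 46.8, 27.8 and 25.3 CPM in green libraries 1 to 3, at 28.5, 23.03 and 26.0 CPM under blue and at 39.7, 18.5 and 32.6 CPM in white. Green library 1 was the highest and white library 2 the lowest, and the 3 groups overlapped. The means were 33.3 ± 11.7 CPM in green, 25.8 ± 2.75 CPM under blue and 30.3 ± 10.8 CPM in white (SD, n = 3). The log2 difference of 0.37 ± 0.27 (SE) between green and blue (edgeR adjusted p = 0.798) was 0.04 without green library 1.

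Arntl, whose protein is the obligate partner of CLOCK, was the steadiest. Its levels were 100.6, 90.3 and 89.96 CPM in green, 98.3, 95.7 and 97.0 CPM under blue and 91.8, 89.6 and 93.2 CPM in white. All 3 blue libraries lay above all 3 white ones, a separation that 9.9% of all genes tested showed. The difference was small, 0.08 ± 0.07 on the log2 scale (edgeR adjusted p = 0.99996), and green library 1 alone exceeded every blue library.

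The Period genes encode repressors of the clock, and light acutely induces Per1 and Per2 in the brain's clock. Per1 stood at 137, 159 and 153 CPM in green, 126, 145 and 122 CPM under blue and 133, 145 and 139 CPM in white. Its log2 difference between green and blue was 0.20 ± 0.09 (edgeR adjusted p = 0.697), with blue library 2 above green library 1. Per2 was at 41.2, 47.9 and 44.5 CPM in green, 38.2, 45.5 and 36.6 CPM under blue and 38.1, 38.9 and 50.6 CPM in white. White library 3 had the highest Per2 of all libraries, and the groups overlapped in each comparison. Per3 was at 24.1, 26.1 and 20.7 CPM in green, 21.7, 19.6 and 18.9 CPM under blue and 21.1, 17.5 and 20.9 CPM in white. Green libraries 1 and 2, which share an animal number, were the 2 highest for Per3, and green library 3 fell among the white ones. The difference of 0.25 ± 0.12 between green and white did not pass (edgeR adjusted p = 0.854).

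The cryptochromes encode the stronger repressors of CLOCK and ARNTL. Cry1 was at 63.3, 75.7 and 72.3 CPM in green, 75.7, 74.6 and 72.1 CPM under blue and 74.9, 78.8 and 83.0 CPM in white. Green library 1 had the lowest Cry1 of all libraries and green library 2 lay above white library 1. The log2 difference between green and white was -0.16 ± 0.09 (edgeR adjusted p = 0.893). Cry2 was at 283, 345 and 330 CPM in green, 315, 347 and 330 CPM under blue and 297, 347 and 318 CPM in white. Its group means of 319.5 ± 32.4, 331 ± 15.8 and 321 ± 25.2 CPM differed by less than the spread within each group.

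Nr1d1 and Nr1d2 encode REV-ERB alpha and beta, paralogous nuclear receptors that repress Arntl. Nr1d1 hardly varied, at 248, 273 and 249 CPM in green, 275, 285 and 269 CPM under blue and 252, 275 and 265 CPM in white. In mammals Nr1d1 overlaps Thra on the opposite strand. The sources used here name no strand setting for the counting, so reads from the stretch that the 2 genes share may not be told apart. How many reads that concerns was not measured. Nr1d2 varied widely, at 187, 126 and 126 CPM in green, 152, 113 and 119 CPM under blue and 153, 90.6 and 151 CPM in white. Its extremes were the same as those of Clock, green library 1 at the top and white library 2 at the bottom. The log2 difference of Nr1d2 between green and blue was 0.19 ± 0.21 (edgeR adjusted p = 0.848) and -0.018 without green library 1.

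Dbp, a PAR bZIP transcription factor that carries the rhythm to D-box genes, came nearest to a difference between lights. It stood at 194, 229 and 203 CPM in green, 249.5, 250.0 and 241 CPM under blue and 212, 249 and 224 CPM in white. All 3 green libraries lay below all 3 blue ones, a separation that 14.2% of all genes tested showed, and white libraries lay across both. The means were 209 ± 18.5 CPM under green and 247 ± 4.91 CPM under blue light. In edgeR the log2 difference was -0.24 ± 0.09 (adjusted p = 0.654), and the DESeq2 adjusted p was 0.41. The level of pigment epithelium markers moved with Dbp: the 2 green libraries with the least Dbp also had the least of these markers, and 10 of the 11 were lower in green than in blue, with 0 called. Of 8 Müller glia markers 7 were lower in green, with 0 called and sums of 8122 to 9120 CPM against 9308 to 10486 CPM, and their part in the result was not tested. With the pigment epithelium level as a covariate the Dbp difference was -0.13 (edgeR adjusted p = 0.998). In such bulk samples fewer cells of a type and less RNA per cell cannot be told apart.

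How far the 10 genes varied over the 9 libraries differed strongly from gene to gene. The coefficient of variation (CV) was 4.26% for Arntl and 4.89% for Nr1d1, and 29.3% for Clock and 21.0% for Nr1d2. The median CV of the 7508 genes tested with a mean at least that of Per3, the least abundant of the set by CPM, was 8.68%, and 4 of the 10 lay below it. Of those genes 2.80% had a lower CV than Arntl and 6.09% a lower one than Nr1d1, while 98.5% had a lower one than Clock and 95.2% a lower one than Nr1d2. CPM is not scaled by transcript length, so the levels do not rank the 10 genes by transcripts per cell.

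Some of the widest gaps lay between libraries with an animal number in common. Between the right and the left eye of white animal 6, Clock was 1.08 higher on the log2 scale in the right, and Nr1d2 was 0.76 higher. Of all genes tested, 1.38% differed by more than Clock in that pair, and the median absolute difference was 0.19. Between the 2 libraries of green animal 11, both titled as the right eye, Clock differed by 0.74 and Nr1d2 by 0.57, while Cry2 went the other way by -0.29. In that pair 4.69% of all genes tested differed by more than Clock. The 2 eyes of blue animal 32 were closer, with Clock at -0.17 and Per2 at 0.31 (right minus left), and 33.8% of genes differed by more than Clock. Arntl differed by 0.15, -0.02 and 0.03 in the green, blue and white pairs. Pigment epithelium markers differed in these pairs too, at 243 and 735 CPM in green libraries 1 and 2. They stood at 572 and 718 CPM in blue libraries 2 and 3 and at 360 and 754 CPM in white libraries 1 and 2. The part of tissue content in these gaps was not tested.

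Over the 9 libraries, 4 of the 45 pairs of clock genes were correlated at an adjusted p under 0.05 in an exact two-sided permutation test of Pearson's r, with Benjamini-Hochberg adjustment over the 45. The smallest absolute r among them was 0.894, which 0.581% of all pairs of genes tested reached, against 8.89% of the 45. That cut was taken from these same pairs, and the background holds genes of all levels, so these shares are not a test. All of the correlated pairs but Nr1d1 with Dbp lie among Clock, Nr1d2 and Cry2. Clock and Nr1d2 rose and fell together (r = 0.947, exact p = 1.378e-04, adjusted p = 0.00422; Spearman's rho = 0.933, exact p = 7.496e-04). Cry2 ran against both, with r = -0.922 against Clock (exact p = 3.224e-04, adjusted p = 0.00484; rho = -0.917, exact p = 0.00131) and r = -0.894 against Nr1d2 (exact p = 9.37e-04, adjusted p = 0.0105; rho = -0.983, exact p = 4.96e-05). Nr1d1 and Dbp rose and fell together, with r = 0.946 (exact p = 1.874e-04, adjusted p = 0.00422; rho = 0.967, exact p = 1.653e-04). The libraries are not fully independent, since 3 pairs of them share an animal number.

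These 4 relations were checked in smaller sets of libraries. Without the 2 libraries farthest from the median of the pair's first gene, r was 0.838 for Nr1d2 and Clock, -0.866 for Clock and Cry2, -0.862 for Nr1d2 and Cry2 and 0.878 for Nr1d1 and Dbp. With 7 libraries none of the 45 exact permutation tests passed (smallest adjusted p = 0.0982). Clock with Nr1d2, and Nr1d1 with Dbp, passed when any 1 library was left out. Both relations of Cry2 were lost without green library 1, at r = -0.86 with Clock and -0.83 with Nr1d2 (exact permutation adjusted p = 0.0859 and 0.115), and passed without any other single library. Without green library 1 the count of correlated pairs was 2, and without green library 2 or green library 3 it was 7. Means per animal number, 6 values, gave r of 0.828, -0.843, -0.826 and 0.957 for the same 4 pairs; with 6 values the smallest adjusted p a lone pair can reach is 0.125. With each level centred on the mean of its light group, the 4 pairs kept r of 0.954, -0.925, -0.91 and 0.931.

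**Figure D3:**
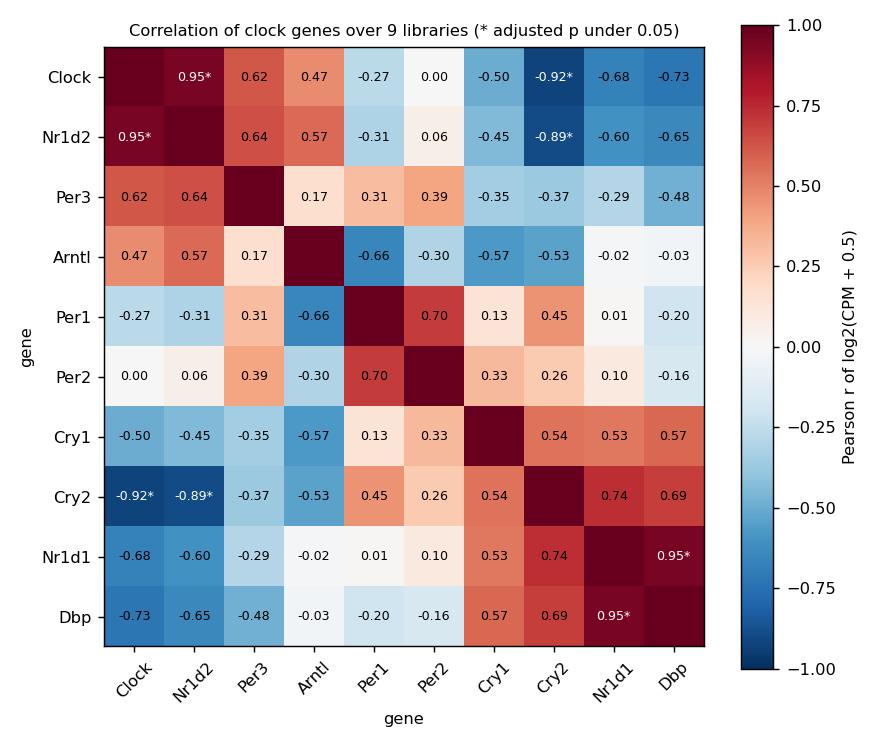
Pearson's r of log2(CPM + 0.5) for each pair of clock genes over 9 libraries, with colour from -1 (blue) to 1 (red); an asterisk marks an adjusted p under 0.05 in the exact permutation test. Clock and Nr1d2 run against Cry2, Nr1d1 and Dbp run together, and Arntl stands at -0.02 with Nr1d1 and -0.03 with Dbp.

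**Figure D4:**
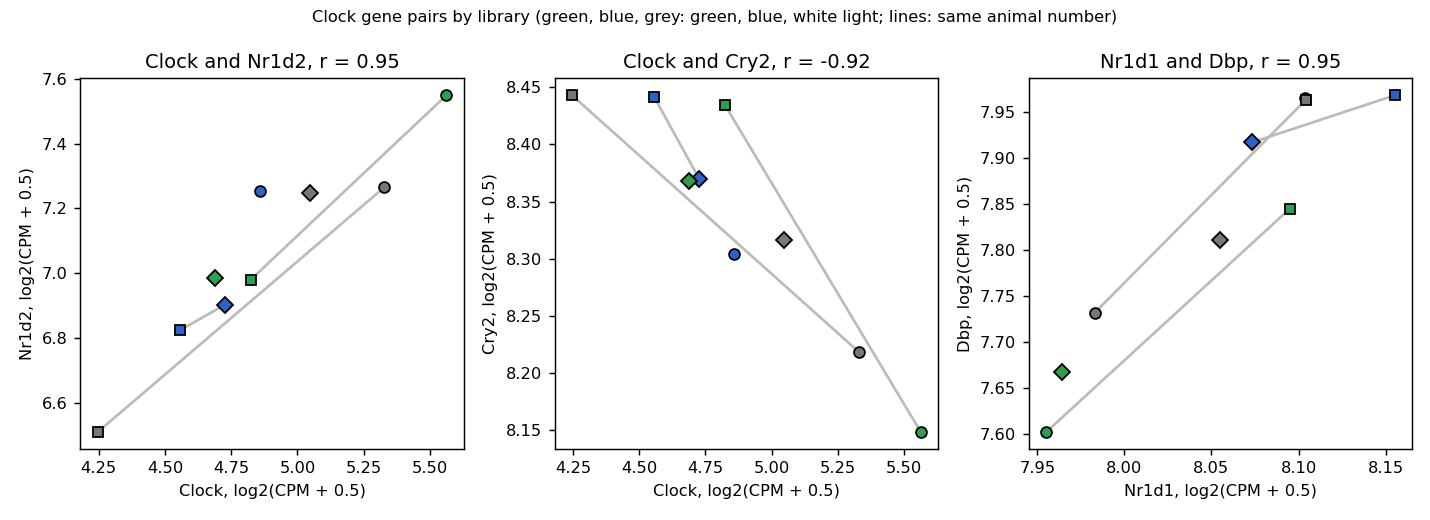
Log2 levels of 3 correlated pairs of clock genes, 1 point per library, with lines joining libraries of an animal number in common (circle, square and diamond for libraries 1, 2 and 3). Green library 1 and white library 2 stand at opposite ends of both plots of Clock; in the plot of Nr1d1 and Dbp blue library 1 lies under white library 2.

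No inverse relation of Arntl to Nr1d1 or Dbp passed the test in these libraries. Since no clock time is named for the retinas, it is not known whether the libraries differ in time of day. The test thus cannot show whether these transcripts peak at opposed times. Arntl and Nr1d1 had r = -0.02 (exact permutation p = 0.963, adjusted p = 0.994, n = 9) and Arntl and Dbp r = -0.03 (exact permutation p = 0.935, adjusted p = 0.994). Neither sign was stable: over means per animal number r was 0.79 with Nr1d1 and 0.68 with Dbp, and with levels centred on the light group it was -0.49 and -0.61 (exact permutation p = 0.185 and 0.0858). Of the Period genes, Per1 had the strongest inverse relation to Arntl (r = -0.66, exact permutation p = 0.059, adjusted p = 0.23; rho = -0.717, exact p = 0.0369), and r stayed between -0.77 and -0.58 with any 1 library left out. Arntl stood at r = -0.30 with Per2, 0.17 with Per3 and 0.47 with Clock, none of which passed. With levels centred on the light group Clock and Arntl did pass (r = 0.80, exact permutation adjusted p = 0.0421), while without the 2 farthest libraries r was -0.25. Nr1d1 ran from 248 to 285 CPM and Arntl from 89.6 to 100.6 CPM over all libraries, and these 2 genes had the lowest ratios of highest to lowest level among the 10. Per1 and Per2 had r = 0.70 (exact permutation p = 0.0394, adjusted p = 0.224), and Cry1 and Cry2 r = 0.54 (exact permutation adjusted p = 0.315), and neither pair passed. Nr1d1 and Nr1d2 had r = -0.60 (exact permutation adjusted p = 0.278), and the sign turned to r = 0.67 in residuals on the first principal component (exact permutation adjusted p = 0.242) and to 0.018 over means per animal number. This pair, Per1 with Per2 and Per1 with Arntl were picked after their values were seen.

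Of the 10 genes, 3 passed in their relation to the main axis of difference between libraries. Among 30 relations of the 10 genes to that first principal component, the pigment epithelium level and the total count, 4 passed after adjustment. With the principal component, Nr1d2 had r = 0.962 (exact permutation p = 8.267e-05, adjusted p = 0.00248; rho = 0.983, exact p = 4.96e-05), Clock r = 0.943 (exact permutation adjusted p = 0.0031; rho = 0.95) and Cry2 r = -0.903 (exact permutation adjusted p = 0.00573; rho = -0.967). Without the 2 libraries farthest from the median of that axis, r was 0.918, 0.827 and -0.792 for these 3 genes. Dbp had r = -0.803 with the axis (exact permutation adjusted p = 0.0554) and Nr1d1 r = -0.751 (exact permutation adjusted p = 0.0805), and neither passed. Without the same 2 libraries r was -0.60 for Dbp and -0.64 for Nr1d1. An absolute r of 0.9 or more with the axis was reached by 3.51% of all genes tested. After a straight-line fit on the axis, r was 0.43 for Nr1d2 and Clock, -0.49 for Clock and Cry2 and -0.21 for Nr1d2 and Cry2, while Nr1d1 and Dbp kept r = 0.87 (exact permutation adjusted p = 0.06). This check was chosen after seeing the data.

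The fourth relation was that of Dbp to the pigment epithelium level, with r = 0.866 (exact permutation p = 0.00328, adjusted p = 0.0246; rho = 0.70, exact p = 0.0433). It stood at r = 0.695 without the 2 farthest libraries (exact permutation p = 0.0869), so that it rests in part on them. Nr1d1 had r = 0.804 with that level (exact permutation adjusted p = 0.0568). In residuals on the pigment epithelium level Nr1d1 and Dbp still correlated at r = 0.84 (exact permutation adjusted p = 0.0492). No relation to the total count passed; the strongest was Cry1 at r = -0.659 (exact permutation adjusted p = 0.175).

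**Figure D5:**
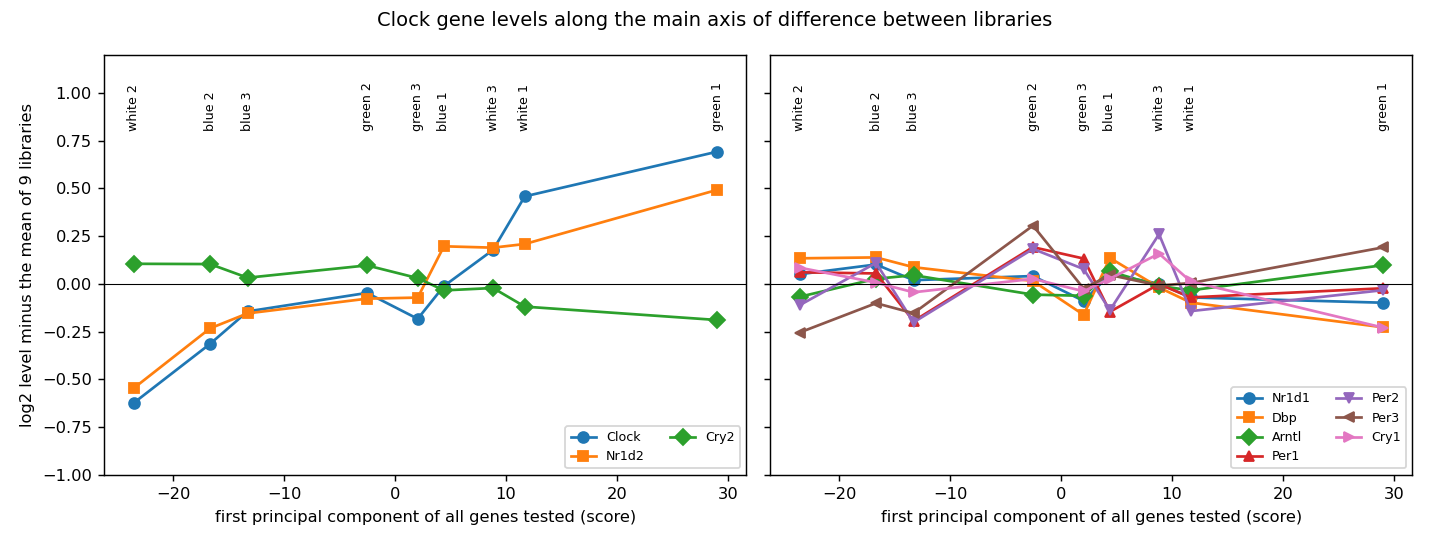
Log2 level of each clock gene minus its mean (vertical axis) against the score of each library on the first principal component of all genes tested (horizontal axis), labelled by library. Clock and Nr1d2 are lowest in white library 2 and highest in green library 1, where Cry2 is highest and lowest in turn; the other 7 genes are in the panel on the right.

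The genes whose pattern was most like that of Clock, a search chosen after its values were seen, tracked it closely. Among 10589 other named genes with a mean of at least 5 CPM, the highest r over the 9 libraries was 0.996 for Stag2, a subunit of cohesin, and 0.996 for Arhgap21. B3galt2, the kinase anchor gene Akap11 and Scaf11 followed at 0.989 to 0.994. Akap11 ranged from 32.0 to 91.5 CPM. The most opposed were Ddx28 at -0.977 and Prkcsh at -0.971.

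For Arntl the closest were Kdm6a, an X-linked histone demethylase gene, at r = 0.967, Smad9, a mediator of BMP signals, at 0.965 and Ap3s1 at 0.953, with Eif2s3, Tbl1x and Atl3 between 0.911 and 0.923. The most opposed to Arntl was Rps6kb2, which encodes an S6 kinase, at -0.977, followed by Card10, Ncln, Nadk, Alg12 and Rps6kl1 between -0.962 and -0.945. For the mean log2 level of Per1, Per2, Per3, Nr1d1, Nr1d2 and Dbp the closest were Foxp1 at 0.946, Kdm3b at 0.934, Aff2, Znf532, Gucy1b1 and Fkbp5, and the most opposed was Mrps15 at -0.944. That mean is a poor summary of its members, for it had r = 0.859 with Per3 and -0.04 with Nr1d1. All these values describe 9 libraries and were picked as extremes of many.

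Beyond the 10, 32 other genes of the clock and its input were listed, of which 29 had a row and 28 were tested. In edgeR 0 of the 28 passed in any comparison. At an unadjusted p under 0.05 stood 2 of 28 between green and white, 0 of 28 between blue and white and 4 of 28 between green and blue, where 5.81%, 4.45% and 7.18% of all genes tested did. The median log2 difference of the 28 was 0.03 between green and white, -0.05 between blue and white and 0.02 between green and blue, beside 0.01, 0.0048 and -0.0025 over all genes tested.

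Bhlhe40, the DEC1 repressor that light induces in other clock tissues, had the smallest joint p of the list. Green libraries held 63.5 ± 9.91 CPM of it, blue ones 43.9 ± 7.86 and white ones 50.5 ± 5.37. Green exceeded blue by 0.53 ± 0.15 on the log2 scale (edgeR adjusted p = 0.586; DESeq2 adjusted p = 0.0843). Rorb, a nuclear receptor that activates Arntl and serves rod development, was at 55.6 ± 11.5 CPM in green, 35.9 ± 0.969 CPM under blue and 47.6 ± 12.2 CPM in white (green against blue, edgeR adjusted p = 0.599). Sik1, a kinase induced by CREB, was at 190.03 ± 68.7, 116 ± 9.36 and 149 ± 26.4 CPM in green, blue and white (edgeR adjusted p = 0.621). Tef, a PAR bZIP factor like Dbp, had 319 ± 27.3 CPM under green and 376 ± 30.7 CPM under blue light, with a log2 difference of -0.24 ± 0.09 (edgeR adjusted p = 0.654). Its level in white, 375 ± 27.9 CPM, lay within the spread of blue.

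Hlf, the remaining PAR bZIP factor, was at 162 ± 13.0, 174 ± 4.73 and 162 ± 12.1 CPM in green, blue and white. Nfil3, which competes with these factors at D-boxes, was at 21.5 ± 1.30, 19.1 ± 0.945 and 19.7 ± 3.18 CPM. Ciart, a repressor of CLOCK and ARNTL, was at 19.1 ± 1.56, 20.5 ± 2.19 and 19.9 ± 1.77 CPM, and Bhlhe41 at 36.7 ± 3.15, 38.3 ± 3.10 and 36.0 ± 0.772 CPM. Npas2, a paralogue of Clock, was at 15.7 ± 1.51, 13.7 ± 0.983 and 15.4 ± 1.92 CPM. In Gsk3b, a kinase gene, the spread was wide, at 80.7 ± 40.7, 75.6 ± 47.3 and 129.6 ± 19.4 CPM, and in Crem, a cAMP-response factor, green stood at 7.23 ± 5.47 CPM against 4.25 ± 0.90 and 4.60 ± 1.26 CPM under blue and white. None of these passed in edgeR (smallest adjusted p of the 28 genes in any comparison 0.586).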

How the data were processed

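The authors deposited 1 table of whole-number counts per gene for 9 retinal libraries (Trizol RNA, paired-end sequencing on an Illumina HiSeq instrument, per the labels' protocols). Aligner, counter, strand setting, build and annotation: not given in the sources used here. Groups come from the labelled treatment; numbers 1 to 3 within a light follow the order of deposition and pair nothing. Low multiples of 4 are over-represented in the table, so counts divided by 4 were tried as well.

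All 9 libraries entered 1 fit in edgeR 4.0.16 (R 4.3.3) with light as the only term, filterByExpr (minimum count 10, minimum total 15), TMM scaling and quasi-likelihood F tests; p-values were Benjamini-Hochberg adjusted over 15469 genes. With animals repeated, they measure only how libraries spread. Levels are CPM scaled by TMM (mean ± SD). SE and 95% intervals derive from the fold change and its F. Correlations used log2(CPM + 0.5) and every order of the libraries; for centred levels and residuals these tests are approximate. DESeq2 1.42.0 and voom (limma 3.58.1; estimated correlation within animal numbers -0.17) were alternatives, with other scalings and filters, libraries left out, counts summed per animal number, and the -B suffix or the pigment epithelium level as a covariate. The edgeR script and the correlation script were tested on simulated data. The 10 genes, lists and rules for naming genes were chosen with earlier results of these data known. The rule named all 10 genes, pairs past the threshold with 7 fixed pairs, the 6 most and 6 least similar genes (1 of them is not reported here), and, of the other clock genes, 8 fixed ones and the 6 of smallest joint p. Of the 10 symbols 9 occur among the RefSeq gene names of mCavPor4.1; Arntl is the older name of Bmal1. No sequences are shown.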

Additional observations from a re-analysis of the deposited data

How the results depend on the processing

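Across 21 alternatives for each comparison of 2 lights, 0 clock genes were called, and the smallest adjusted p was 0.378 (Dbp, green against blue, voom). No paired analysis was possible because the labels give no replicate numbers that the light groups share. Of the log2 differences of the 10 genes under these alternatives, 593 kept their sign and 37 turned; the cause was not tested.

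Without both -B libraries the log2 difference between green and white was -0.14 for Clock, -0.016 for Arntl and 0.059 for Cry2; between blue and white it was 0.046 for Per2 and 0.058 for Nr1d2, and between green and blue -0.018 for Nr1d2, 0.0022 for Cry1 and 0.034 for Cry2. With the -B suffix as a covariate it was 0.11 for Nr1d2 and -0.0018 for Cry2 between blue and white. With the pigment epithelium level as a covariate it was -0.016 for Clock and 0.047 for Cry2 between green and white, 0.084 for Nr1d2 between blue and white, and -0.078 for Nr1d2 and 0.031 for Cry2 between green and blue. Per2 between green and white was -0.0062 with counts summed per animal number, and Cry2 0.0033 with a filter of 5 CPM. Leaving out 1 library at a time gave, between green and white, -0.012 to 0.20 for Per2, -0.068 to 0.27 for Nr1d2, -0.19 to 0.38 for Clock, -0.026 to 0.058 for Arntl and -0.067 to 0.068 for Cry2. Between blue and white it gave -0.19 to 0.046 for Per2, -0.066 to 0.058 for Per3, -0.25 to 0.072 for Nr1d2, -0.48 to 0.0088 for Clock and -0.019 to 0.10 for Cry2. Between green and blue it gave -0.018 to 0.33 for Nr1d2, -0.13 to 0.0023 for Cry1 and -0.11 to 0.034 for Cry2.

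The count of correlated pairs, 4, was 12 with levels centred on the light group, 2 to 7 with 1 library left out, and 0 with means per animal number, without both -B libraries, without the 2 farthest libraries and in residuals on the first principal component. The last of these was chosen after seeing the data. The sets of 6 or 7 values have fewer orders to test. The smallest adjusted p a lone pair can reach is 0.125 with 6 values and 0.0179 with 7, so with 7 values a lone pair could pass. The correlation of Nr1d1 and Arntl was 0.79 with means per animal number, 0.44 without both -B libraries, 0.041 in residuals on the pigment epithelium level, 0.26 without the 2 farthest libraries and 0.48 in residuals on the principal component. In the same order that of Dbp and Arntl was 0.68, 0.56, 0.028, 0.42 and 0.54, and Spearman's rho was 0.033. Centred on the light group these correlations were -0.49 and -0.61, and Spearman's rho of Nr1d1 and Arntl was -0.15. Clock and Arntl stood at 0.80 when centred. Nr1d1 and Nr1d2 turned to 0.018 with means per animal number and 0.67 in residuals on the principal component. Per3 and Arntl stood at -0.12 without both -B libraries and -0.15 in residuals on the principal component, Clock and Arntl at -0.25 without the 2 farthest libraries, and Cry1 and Cry2 at -0.12 with means per animal number. With 1 library left out r ran from -0.25 to 0.44 for Nr1d1 and Arntl, -0.25 to 0.55 for Dbp and Arntl, -0.12 to 0.58 for Per3 and Arntl and -0.051 to 0.71 for Cry1 and Cry2.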

Other observations

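Genes that light induces through neuronal activity were compared as a group: 13 of 14 had a row and 12 were tested. In edgeR 0 passed in any comparison, and 1, 1 and 2 of the 12 had an unadjusted p under 0.05 between green and white, blue and white, and green and blue, where 5.81%, 4.45% and 7.18% of all genes tested did. The last 2 were Nr4a1 and Sik1, and Sik1 is also in the list of other clock genes. Nr4a1, an orphan nuclear receptor of the immediate early class, had 27.5 ± 4.58 CPM under green, 17.5 ± 4.21 under blue and 20.7 ± 2.61 under white light (SD of 3 libraries). Green exceeded blue in Nr4a1 by 0.65 ± 0.18 on the log2 scale (edgeR adjusted p = 0.58; DESeq2 adjusted p = 0.0759). Fosb, an AP-1 subunit gene, was at 3.24 ± 0.762, 4.03 ± 1.46 and 1.98 ± 0.752 CPM. Egr1, which responds to defocus in the retina of other species, was at 23.4 ± 11.9, 23.3 ± 14.7 and 21.5 ± 3.61 CPM in green, blue and white. Egr1, Fkbp5 and Tsc22d3 stand outside the rule for naming genes and were chosen after their values were seen.

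Of 12 genes induced by glucocorticoids, hormones that also drive Per1, 11 were tested and 0 passed in edgeR. Between green and white 2 of 11 had an unadjusted p under 0.05 in edgeR, against 5.81% of all genes tested. The counts were 0 of 11 between blue and white, against 4.45%, and 2 of 11 between green and blue, against 7.18%. Green exceeded blue in 9 of the 11 and fell below it in 2, where 49.4% of all genes tested were higher in green. Fkbp5, a standard readout of the receptor, differed by 0.07 ± 0.09 between green and white on the log2 scale, and Tsc22d3 by -0.01 ± 0.09. Errfi1 differed by -0.26 ± 0.10 in the same comparison (edgeR adjusted p = 0.84). Cdkn1a was higher in green than in blue by 0.46 ± 0.20 (edgeR adjusted p = 0.686). Ddit4, an inhibitor of mTOR signalling, had 110.5 ± 7.39 CPM under green, 91.5 ± 4.78 under blue and 80.5 ± 6.21 under white light (green against white, edgeR adjusted p = 0.475; DESeq2 adjusted p = 0.00558). Of 6 melatonin genes 5 had a row and 4 were tested, with 0 called. Aanat, the rhythmic enzyme of melatonin synthesis, had 135 ± 19.7 CPM under green, 105 ± 10.6 under blue and 107 ± 14.3 under white light. Green exceeded white in Aanat by 0.34 ± 0.13 on the log2 scale (edgeR adjusted p = 0.84; DESeq2 adjusted p = 0.568).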
